A study of Mus musculus with 17 samples.

Results

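The glycolysis and hypoxia response genes described here are 32 mouse genes taken from a list of names: 4 transporters, 15 glycolytic enzymes, 4 regulators and 9 further hypoxia targets. All 32 were found among the 48397 genes of the bulk RNA-seq count tables and among the 28208 genes common to the 5 single-cell RNA-seq matrices. The 12 bulk libraries are labelled as splenic T cells of WT mice stimulated with antibodies to CD3 and CD28 in every group, with activation read at 72 h. Control received no Fc protein, Ctrl_Fc received control IgG Fc at 2.5 µg/ml, PD1_Fc received PD-1 Fc at 2.5 µg/ml, and PDL1_Fc is so named by title, with 3 libraries in each group. The treatment field calls all 3 PDL1_Fc libraries PD1 Fc and calls PD1_Fc replicate 3 PDL1 Fc, so the agent given to these 4 libraries is not settled by the labels. The 5 single-cell libraries, 1 per genotype and all untreated, are CD4Cre, PDL1 floxed/floxed (flfl), PDL1 floxed/floxed-CD4Cre (flfl_CD4Cre), PDL1 floxed/WT-CD4Cre (flWT_CD4Cre) and WT. They are labelled as tumour infiltrating T cells, and the design text speaks of leukocytes sorted for CD45 from orthotopic pancreatic tumours at 3 weeks. CD4Cre drives recombination from the CD4 promoter in cells of the T lineage, so the floxed gene would remain in other cells of the same mice. Nothing in the labels says that replicates came from separate animals, so p-values measure the spread between these libraries, which may be technical.

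Glycolysis takes up glucose through transporters of the Slc2a family, splits it to pyruvate in the cytosol and, when pyruvate is reduced to lactate, exports lactate through the Slc16a family. HIF-1α, the product of Hif1a, is degraded in oxygen after hydroxylation by prolyl hydroxylases such as Egln3, and when stabilised it pairs with Arnt and binds a short core in DNA, ACGTG or GCGTG. Its classical targets include nearly every step of glycolysis and genes for blood vessel growth, mitophagy and collagen hydroxylation. Activated T cells and inflammatory macrophages are both known for a high glycolytic rate.

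The promoter windows of 5 genes named below are printed because they show the range of core matches, from none in the first Vegfa window to 7 in Ldha. Each runs from 250 bases before to 50 bases after a transcription start in RefSeq on GRCm38.p6, and capitals mark ACGTG or GCGTG on either strand, so that CACGT and CACGC are the same cores on the reverse strand and CACGTG holds overlapping matches. They lie at chr4:119108495-119108794 (Slc2a1, plus strand, 2 matches), chr7:46845554-46845853 (Ldha, plus strand, 7 matches), chrX:106186850-106187149 (Pgk1, plus strand, 2 matches), chr7:138909457-138909756 (Bnip3, minus strand, 5 matches) and chr17:46032328-46032627 (Vegfa, minus strand, 0 matches). A second listed start of Vegfa, with its window at chr17:46025114-46025413, held 2 matches and is not printed.
Slc2a1: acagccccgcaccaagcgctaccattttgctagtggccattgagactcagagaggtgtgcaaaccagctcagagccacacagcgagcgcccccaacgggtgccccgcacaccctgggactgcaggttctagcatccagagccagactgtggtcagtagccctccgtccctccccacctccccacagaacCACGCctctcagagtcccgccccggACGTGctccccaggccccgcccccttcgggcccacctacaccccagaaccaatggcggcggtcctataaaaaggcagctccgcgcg
Ldha: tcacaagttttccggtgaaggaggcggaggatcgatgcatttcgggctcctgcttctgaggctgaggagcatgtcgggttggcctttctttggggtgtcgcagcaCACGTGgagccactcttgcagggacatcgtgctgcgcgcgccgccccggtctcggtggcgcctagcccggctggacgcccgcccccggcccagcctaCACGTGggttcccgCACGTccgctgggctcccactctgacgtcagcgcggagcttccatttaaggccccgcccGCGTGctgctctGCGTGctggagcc
Pgk1: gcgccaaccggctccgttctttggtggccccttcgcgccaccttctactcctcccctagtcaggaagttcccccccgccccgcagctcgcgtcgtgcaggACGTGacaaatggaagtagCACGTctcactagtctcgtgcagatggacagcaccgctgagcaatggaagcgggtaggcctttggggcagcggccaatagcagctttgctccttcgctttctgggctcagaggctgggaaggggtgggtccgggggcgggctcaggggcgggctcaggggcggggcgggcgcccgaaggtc
Bnip3: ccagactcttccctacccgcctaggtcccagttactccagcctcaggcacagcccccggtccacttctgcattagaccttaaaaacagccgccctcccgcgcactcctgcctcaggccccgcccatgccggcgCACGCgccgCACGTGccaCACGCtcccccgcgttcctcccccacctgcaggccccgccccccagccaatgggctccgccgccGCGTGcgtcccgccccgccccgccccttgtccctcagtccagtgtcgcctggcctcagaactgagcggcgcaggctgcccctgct
Vegfa: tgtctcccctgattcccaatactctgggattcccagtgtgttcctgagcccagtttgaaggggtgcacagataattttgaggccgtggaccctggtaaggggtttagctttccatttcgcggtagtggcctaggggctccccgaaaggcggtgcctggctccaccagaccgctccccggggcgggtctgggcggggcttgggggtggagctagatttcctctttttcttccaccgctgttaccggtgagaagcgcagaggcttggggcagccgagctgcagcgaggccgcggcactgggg
Of the 32 genes, 29 had a window, and Bnip3l, Ndrg1 and Slc2a3 had none. Either core stood in the first window of 22 of 29 genes (75.9%), against 43.8% of the first windows of 27025 genes of the genome. ACGTG alone was found in 18 of 29 (62.1%), against 19.7% of those 27025 genes, and GCGTG in 15 of 29 (51.7%), against 32.5%. By role, either core was present in 6 of 7 hypoxia targets, 10 of 15 glycolytic enzymes, 3 of 3 transporters and 3 of 4 regulators. A match describes the letters of a window and is not a binding site, and a window without one says nothing about sites elsewhere.

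Depth and cell markers separated the bulk libraries into sets before any gene of interest was compared. Control and PDL1_Fc held 14880455 to 18557390 counts in genes, with 8.95% to 11.2% of reads not aligned, while Ctrl_Fc and PD1_Fc held 3473884 to 5006301, with 79.9% to 80.4% not aligned. The summed level of 12 macrophage markers was 19340 to 27320 CPM (gene counts scaled to a library total of 1000000) in Control and PDL1_Fc, and 40.9 to 157.0 CPM in Ctrl_Fc and PD1_Fc. Of 12 T-cell markers 1 reached 1 CPM in Control and 5 were at 0 counts (Cd3g, Trac, Trbc2, Cd8a and Bcl11b), and in PDL1_Fc 2 reached 1 CPM and 2 were at 0 counts (Cd3g and Trbc2). Their summed level was 19.97 to 24.4 CPM in these groups, so the markers of the labelled cell type were low there. In Ctrl_Fc and PD1_Fc 10 of 12 reached 1 CPM, with Cd3d at 0 counts and a summed level of 649.9 to 743.9 CPM. Comparisons were therefore made first within a set, and a comparison across the sets measures the set together with the treatment. In bulk RNA, fewer cells of a type and less RNA per cell cannot be told apart.

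Within the T-marker set, the group titled PD1_Fc showed no called change in any of the 32 genes against Ctrl_Fc. In edgeR's quasi-likelihood test with Benjamini-Hochberg adjustment 0 of 32 were called between PD1_Fc and Ctrl_Fc, where 0.0478% of all genes tested were called (0.00682% higher and 0.0409% lower), and DESeq2 also called 0 of the 32. At an unadjusted p under 0.05 there were 3, Vegfa, Pfkm and Bnip3l. The median log2 change of the 32 genes was 0.07, with 21 higher, and that of all genes was 0.05.

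Vegfa, which encodes the main endothelial growth factor and is a classical hypoxia target, stood at 8.92, 10.6 and 18.2 CPM in Ctrl_Fc replicates 1 to 3 and at 26.5, 15.8 and 16.4 CPM in PD1_Fc. PD1_Fc replicate 1 was the highest and 2 of 3 Ctrl_Fc libraries were the lowest, and the groups overlapped through Ctrl_Fc replicate 3. The log2 change was 0.66 ± 0.256 (SE, n = 3 and 3; edgeR adjusted p = 0.926). Without Ctrl_Fc replicate 3 it was 1.13 ± 0.235 and called (edgeR adjusted p = 0.023, against 0.147 to 1.0 under its other alternatives). The same 2 libraries that were highest in Vegfa within their groups also had the highest macrophage marker sums, 157.0 CPM in Ctrl_Fc replicate 3 and 150.6 CPM in PD1_Fc replicate 1, against 40.9 to 51.8 CPM in the other four. The part of these markers in the Vegfa values was not tested.

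**Figure D1:**
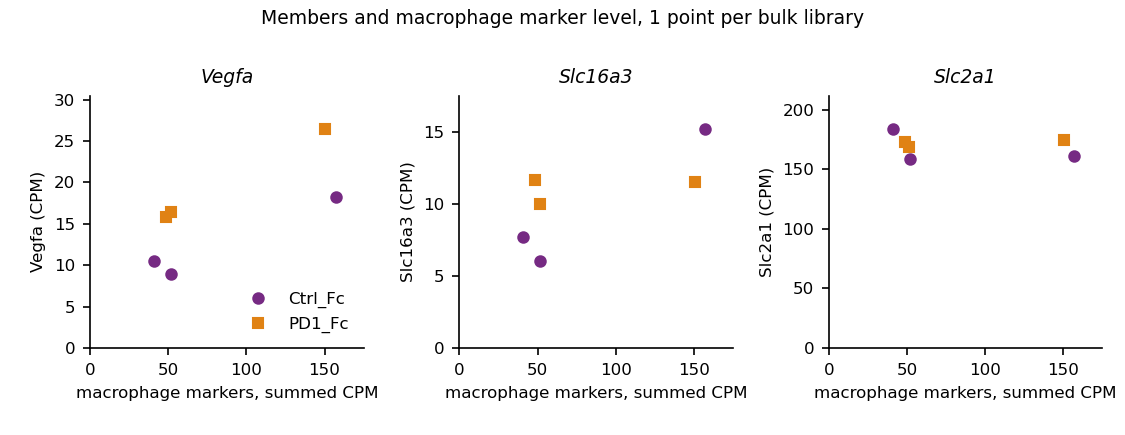
Level of Vegfa, Slc16a3 and Slc2a1 (CPM, vertical axes) against the summed level of 12 macrophage markers (CPM, horizontal axes) in the 3 Ctrl_Fc (circles) and 3 PD1_Fc (squares) libraries, 1 point per library. Ctrl_Fc replicate 3 and PD1_Fc replicate 1 stand apart at 157.0 and 150.6 CPM of marker RNA and hold the highest Vegfa of their groups, while Slc2a1 lies between 159 and 184 CPM in all 6.

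Pfkm, the muscle isoform of phosphofructokinase, which commits sugar to glycolysis, was at 72.0, 68.7 and 64.8 CPM in Ctrl_Fc and at 74.4, 79.7 and 82.5 CPM in PD1_Fc. The groups did not overlap, and the log2 change was 0.27 ± 0.117 (edgeR adjusted p = 0.926). Bnip3l, a mitophagy receptor, was at 3.45, 5.92 and 3.43 CPM in Ctrl_Fc and at 3.08, 1.83 and 2.20 CPM in PD1_Fc. All PD1_Fc libraries lay below all Ctrl_Fc libraries at a level of a few CPM, with a log2 change of -0.76 ± 0.332 (edgeR adjusted p = 0.926). Ldha, the subunit of lactate dehydrogenase that favours lactate, was at 99.0, 87.0 and 114.3 CPM in Ctrl_Fc and at 122.9, 100.8 and 106.1 CPM in PD1_Fc. Those groups overlapped, and the change of 0.20 ± 0.123 had an edgeR adjusted p of 0.932.

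The main glucose transporter of activated lymphocytes, Slc2a1, was at 159, 184 and 161 CPM in Ctrl_Fc and at 174, 173 and 169 CPM in PD1_Fc. The PD1_Fc libraries fell inside the range of Ctrl_Fc, and the interval of the log2 difference ran from -0.11 to 0.31 at 95%. Hif1a was at 597, 537 and 618 CPM in Ctrl_Fc and at 606, 598 and 599.8 CPM in PD1_Fc, again with overlap, and its interval ran from -0.08 to 0.29. For Pgk1, a kinase of the ATP-yielding part of the pathway, Gapdh, the dehydrogenase before it, Bnip3, a mitophagy receptor, and Egln3 the intervals were wide because their levels were low, at -0.39 to 0.82, -0.87 to 0.72, -2.86 to 0.58 and -0.67 to 0.40. A change of about 1 log2 was thus not detectable for Bnip3 at this depth, while for Slc2a1 and Hif1a the intervals lie within 0.31 log2 of no change.

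Within the macrophage-marker set, 0 of 32 genes were called between PDL1_Fc and Control, where 0.0% of all genes tested were called and 528 had an unadjusted p under 0.05. DESeq2 also called 0, and 1 gene, Slc2a3, had an unadjusted p under 0.05. Slc2a3, the high-affinity neuronal and leukocyte glucose transporter, was at 4.16, 5.87 and 4.72 CPM in Control and at 3.13, 3.29 and 4.37 CPM in PDL1_Fc. PDL1_Fc replicate 3 fell among the Control libraries, and the log2 change was -0.45 ± 0.191 (edgeR adjusted p = 1.0). The median log2 change of the 32 genes was -0.02, with 13 higher, and that of all genes was 0.0.

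The next smallest p-values in that set belonged to P4ha1, a subunit of collagen prolyl hydroxylase, Tpi1, the triose phosphate isomerase, and Ndrg1, a stress-induced gene. P4ha1 was at 382, 379.7 and 368 CPM in Control and at 355, 352 and 342 CPM in PDL1_Fc. The groups did not overlap, yet the change was only -0.12 ± 0.09 log2 (edgeR adjusted p = 1.0). Tpi1 was at 1162, 1115 and 1237 CPM in Control and at 1105, 1101 and 1084 CPM in PDL1_Fc, and Ndrg1 was at 378, 402 and 394 CPM against 363, 381 and 356 CPM. Both changes came to -0.10 log2 with an edgeR adjusted p of 1.0, and only Ndrg1 overlapped.

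Slc2a1 was at 1598, 1635 and 1765 CPM in Control and at 1627, 1620 and 1702 CPM in PDL1_Fc, Ldha at 1858, 1928 and 2127 CPM against 1875, 1920 and 1805 CPM, and Vegfa at 1353, 1470 and 1283 CPM against 1452, 1450.0 and 1445 CPM. All of these overlapped. The 95% intervals of the log2 difference ran from -0.21 to 0.17 for Slc2a1, -0.30 to 0.12 for Ldha, -0.26 to 0.10 for Pgk1, -0.25 to 0.35 for Gapdh, -0.25 to 0.12 for Hif1a, -0.20 to 0.36 for Vegfa, -0.12 to 0.34 for Bnip3 and -0.19 to 0.19 for Egln3. The difference between the PD1_Fc change and the PDL1_Fc change was called for 0 of 32 genes, where 0.00682% of genes were called, with DESeq2 calling 0 as well. Slc2a3 (0.54 ± 0.243), Bnip3l (-0.75 ± 0.347) and Pfkm (0.37 ± 0.173) had an unadjusted p under 0.05 there, with edgeR adjusted p of 0.907, 0.907 and 0.908.

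Across the sets the genes differed by far more. Ctrl_Fc held 5493 to 5673 CPM in the 32 genes together and Control 15665 to 17414 CPM, and for the 9 hypoxia targets alone these were 78.5 to 104.0 and 2617 to 2863 CPM. Of the 32 genes 27 fell and 4 rose in Ctrl_Fc against Control, but 91.8% of all genes tested were called in this comparison (47.4% lower and 44.4% higher), so the call itself singles out none of them. The median log2 change of the 32 genes was -3.98, of the glycolytic enzymes -2.82 and of the hypoxia targets -5.62, beside -0.13 for all genes. The macrophage and T-cell markers moved with this contrast as given above, and their part in it, like that of the Fc protein and the sequencing depth, cannot be told apart.

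The TMM scaling of the fit placed Ctrl_Fc 0.75 log2 lower against Control than plain CPM does. On plain CPM 25 genes were lower and 7 higher, and Aldoc, Pkm and Hk1 changed sign. Aldoc, an aldolase isoform, and Pkm, the pyruvate kinase of most tissues, were called lower on the TMM scale, while Hk1, a ubiquitous hexokinase, was not called.

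**Figure D2:**
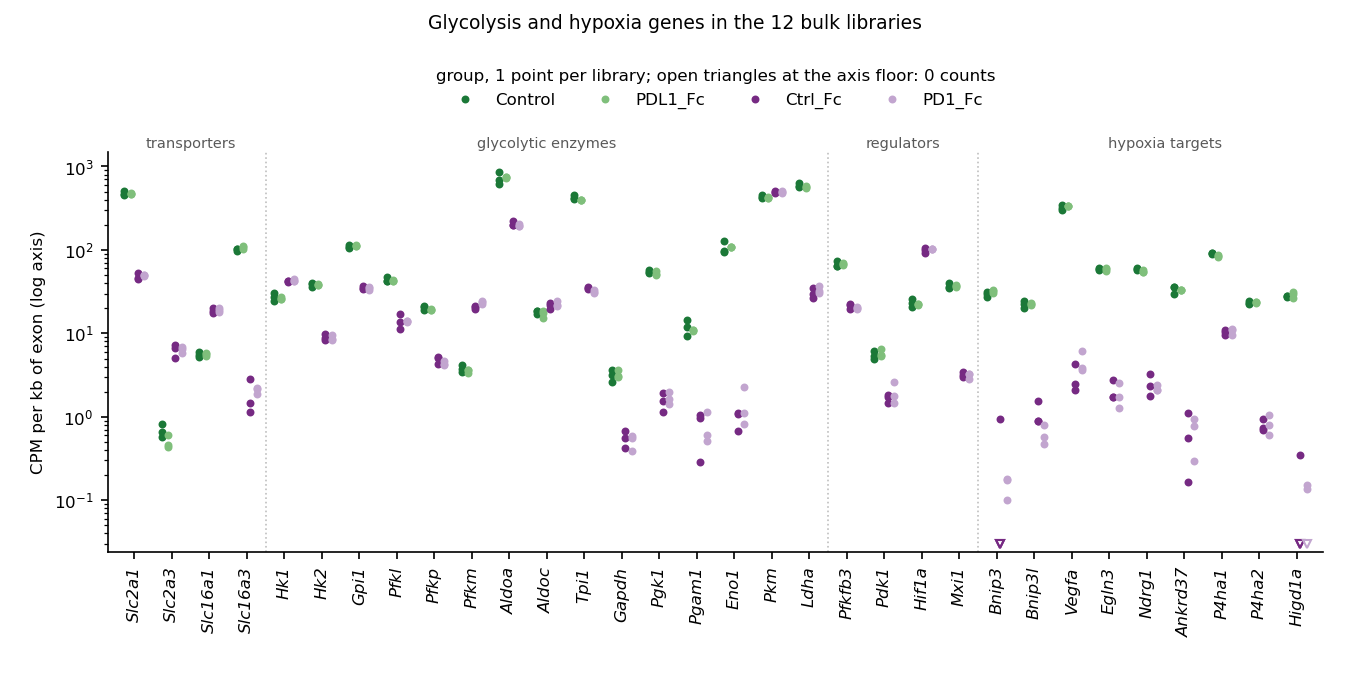
Level of each of the 32 genes in CPM per kb of exon (log axis) in the 12 bulk libraries, 1 point per library, grouped by role. Control and PDL1_Fc points lie close together for nearly all genes, as do Ctrl_Fc and PD1_Fc points, and the hypoxia targets at the right show the widest gap between the sets, with Bnip3 and Higd1a at 0 counts in some Ctrl_Fc or PD1_Fc libraries.

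Among the transporters, Slc2a1 and Slc2a3 went in opposite directions. Slc2a1 was 9.91-fold higher in mean CPM in Control than in Ctrl_Fc, a log2 change of -4.06 ± 0.113 in Ctrl_Fc (edgeR adjusted p = 7.82e-44). Slc2a3, at 52.7, 37.1 and 48.3 CPM in Ctrl_Fc against 4.16 to 5.87 CPM in Control, rose by 2.48 ± 0.165 log2 (edgeR adjusted p = 1.31e-22). The lactate carriers divided in the same manner. Slc16a3, the exporter of highly glycolytic cells, stood at 545, 522 and 541 CPM in Control and at 6.05, 7.72 and 15.2 CPM in Ctrl_Fc, whereas Slc16a1, which carries lactate both ways, was at 24.7, 26.6 and 23.3 CPM in Control and at 78.3, 88.3 and 83.01 CPM in Ctrl_Fc. None of these groups overlapped.

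Of the 15 glycolytic enzymes 13 fell, Pfkm rose and Hk1 was not called (-0.14 log2, edgeR adjusted p = 0.142), so the phosphofructokinase isoforms went in opposite directions. Pfkm was at 11.6, 13.9 and 12.6 CPM in Control and 64.8 to 72.0 CPM in Ctrl_Fc, a rise of 1.68 ± 0.123 log2 (edgeR adjusted p = 1.35e-20), while Pfkl and Pfkp, the liver and platelet isoforms, fell by 2.39 and 2.82 on the log2 scale. Hk2, the inducible hexokinase, was at 213 to 240.5 CPM in Control and 49.2 to 58.2 CPM in Ctrl_Fc. Ldha fell from 1858 to 2127 CPM in Control to 87.0 to 114.3 CPM in Ctrl_Fc, a log2 change of -5.04 ± 0.131 (edgeR adjusted p = 4.67e-44), and Pgk1 from 119.8, 122.8 and 129.4 CPM to 4.32, 2.57 and 3.43 CPM, a log2 change of -5.92 ± 0.166. Eno1, an enolase, was at 503, 526 and 693 CPM in Control and 5.76, 3.60 and 6.01 CPM in Ctrl_Fc, a log2 change of -7.54 ± 0.276.

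Several enzymes have processed copies in the mouse genome, with which reads can be shared. Gapdh was at only 10.7, 14.9 and 13.3 CPM in Control and 1.73, 2.32 and 2.79 CPM in Ctrl_Fc. The tables set aside 5.775% to 6.001% of reads in Ctrl_Fc and 19.8% to 20.4% in Control as aligning to more than 1 place. The aldolase retrogenes Aldoart2 and Aldoart1 were at 564 to 621 and 185 to 219.9 CPM in Ctrl_Fc and at 0.0 to 0.18 and 0.97 to 1.20 CPM in Control, and Pgk2 was at 11.1 to 17.0 CPM against 0 counts. Other copies were low in both groups. Gapdh-ps14 was at 2.88 to 4.93 CPM in Ctrl_Fc and 0.97 to 1.61 CPM in Control, Ldha-ps at 2.57 to 5.47 against 0.0 to 0.12 CPM, Eno1b at 0.0 to 0.58 against 0.66 to 1.19 CPM, and Ldhal6b at 0 counts. These copies were named after their values were seen. How far the counting split or set aside reads of Aldoa, Pgk1, Gapdh, Eno1, Pgam1 and Ldha was not tested, and their levels are uncertain to that extent.

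Per kilobase of exon, the order of levels differed between the sets. In Control Aldoa led with 726.5 CPM per kb, followed by Ldha (595.5), Slc2a1 (475.1), Pkm (431.9), Tpi1 (425.5) and Vegfa (319.5). In Ctrl_Fc Pkm led with 496.4 CPM per kb, followed by Aldoa (206.4), Hif1a (98.98), Slc2a1 (47.95), Hk1 (41.76) and Gpi1 (35.18). Hif1a stood at 23.2 CPM per kb in Control.

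Hif1a itself was at 135.5, 154.0 and 120.7 CPM in Control and at 597, 537 and 618 CPM in Ctrl_Fc, with no overlap, and rose by 1.35 ± 0.097 log2 (edgeR adjusted p = 5.08e-21). The other 3 regulators fell. Pfkfb3, which makes the activator of phosphofructokinase, went from 481 to 559.7 CPM to 147 to 170.1 CPM. Mxi1, an antagonist of Myc, went from 237 to 275 CPM to 20.4 to 23.4 CPM. Pdk1, a kinase that inhibits pyruvate dehydrogenase, fell by 2.44 on the log2 scale. All 9 hypoxia targets fell. Higd1a, a mitochondrial stress protein, was at 84.4, 83.4 and 84.5 CPM in Control and at 0, 0 and 1.072 CPM in Ctrl_Fc, and Bnip3 at 61.1, 71.9 and 67.2 CPM against 0, 0 and 2.15 CPM. Vegfa was 108.9-fold and Egln3 28.3-fold higher in mean CPM in Control, log2 changes of -7.46 ± 0.213 and -5.53 ± 0.157. Ankrd37, an ankyrin repeat gene of this programme, was at 45.1 to 56.1 CPM in Control and 0.26 to 1.72 CPM in Ctrl_Fc.

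PD1_Fc against PDL1_Fc, which shares no library with that comparison but crosses the same sets, gave 27 lower and 4 higher, with 91.8% of all genes called (45% higher and 46.8% lower). The genes that rose were Slc2a3 (3.01), Pfkm (2.05), Hif1a (1.52) and Slc16a1 (1.09), and the largest falls were in Higd1a (-8.90), Bnip3 (-8.30), Eno1 (-6.93) and Vegfa (-6.88), all as log2 changes. Slc2a1 changed by -3.93, Ldha by -4.76, Pgk1 by -5.63, Gapdh by -3.34 and Egln3 by -5.66. Plain CPM lay 0.68 log2 above the TMM scale here and turned the sign of Aldoc and Pkm.

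Genes of the same and neighbouring pathways that are not among the 32 give the setting of this contrast. The counts stand beside the 44.4% of all genes that were called higher and the 47.4% called lower. Of 22 other hypoxia targets tested between Ctrl_Fc and Control 19 fell and 1 rose, with a median of -4.68 log2; the one that rose was Tfrc, the transferrin receptor (5.15 ± 0.124, edgeR adjusted p = 1.23e-44), and Adm, a vasodilator peptide gene, changed by -8.70 ± 0.286. Of 10 genes of the tricarboxylic acid cycle 5 rose and 3 fell, with a median of 0.62 log2. Of 6 genes of pyruvate entry into the mitochondrion or of pyruvate dehydrogenase and its kinases 2 rose and 4 fell. Of 6 pentose phosphate genes 1 rose and 5 fell, and of 13 other glycolysis genes 6 rose and 5 fell. Of 7 regulators of HIF 5 rose and 2 fell. No gene of these lists was called between PD1_Fc and Ctrl_Fc or between PDL1_Fc and Control.

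The single-cell libraries need some facts before their values. Barcodes were shared between libraries: CD4Cre and flfl_CD4Cre held 1414 in common, CD4Cre and flWT_CD4Cre 1710, and flfl_CD4Cre and flWT_CD4Cre 1856, with 0 to 12 in every pair that includes flfl or WT. In 3561 cases the lesser copy held over 10 times fewer UMIs, a median of 2.23% of those of the higher copy, and these copies were removed. CD4Cre, flWT_CD4Cre and flfl_CD4Cre carry a Cell Ranger 3.1.0 file header and list 31053 genes, while flfl and WT carry none and list fewer, so that genotype and processing cannot be told apart between these sets. Cells were classed by marker UMIs, with none of the 32 genes among the markers, and 14788 of 16771 cells were placed. Against the label of T cells, only 977 cells were T-like, while 7801 were macrophage-like, 3012 B-like, 943 dendritic-like, 701 neutrophil-like and 1284 tumour-like.

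The tumour-like cells passed a sort for CD45, yet Ptprc, which encodes CD45, stood at 2.99 to 15.5 CPM in them and at 222 to 712 CPM in macrophage-like cells. Their median depth was 28621 to 41879 UMIs per cell by library, against 10946 to 13564.5 in myeloid-like and 4842 to 8705 in lymphoid-like cells. Cd274, the floxed gene, was counted in T-like cells at 44.2 CPM in CD4Cre (95% Poisson interval 30.4 to 62.0, from 33 UMIs), 23.3 CPM in flWT_CD4Cre, 44.4 CPM in flfl_CD4Cre (24.9 to 73.3, from 15 UMIs), 7.15 CPM in flfl and 5.09 CPM in WT. It was thus not lower in the floxed/floxed-CD4Cre library, but tags from the 3′ end may lie outside the deleted part and check nothing. All Poisson intervals here cover counting error only.

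Between cell classes the summed level of the glycolysis and hypoxia genes was highest in tumour-like, neutrophil-like and macrophage-like cells and lowest in B-like cells. The sum of the 32 genes had a median over libraries of 14444 CPM in tumour-like, 11077 in neutrophil-like, 10614 in macrophage-like, 6827 in T-like, 5842.5 in dendritic-like and 2228 in B-like cells. Of the 32 genes 20 had their highest mean in tumour-like, 10 in neutrophil-like and 2 in dendritic-like cells, and 26 had their lowest in B-like cells. Neighbours in these orders often overlapped between libraries: for 12 genes no neighbouring pair was separated in all libraries, and only Tpi1 showed 3 separated steps. Shares over all genes were not computed for these orders, so the counts do not set the 32 genes apart from other genes.

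**Figure D3:**
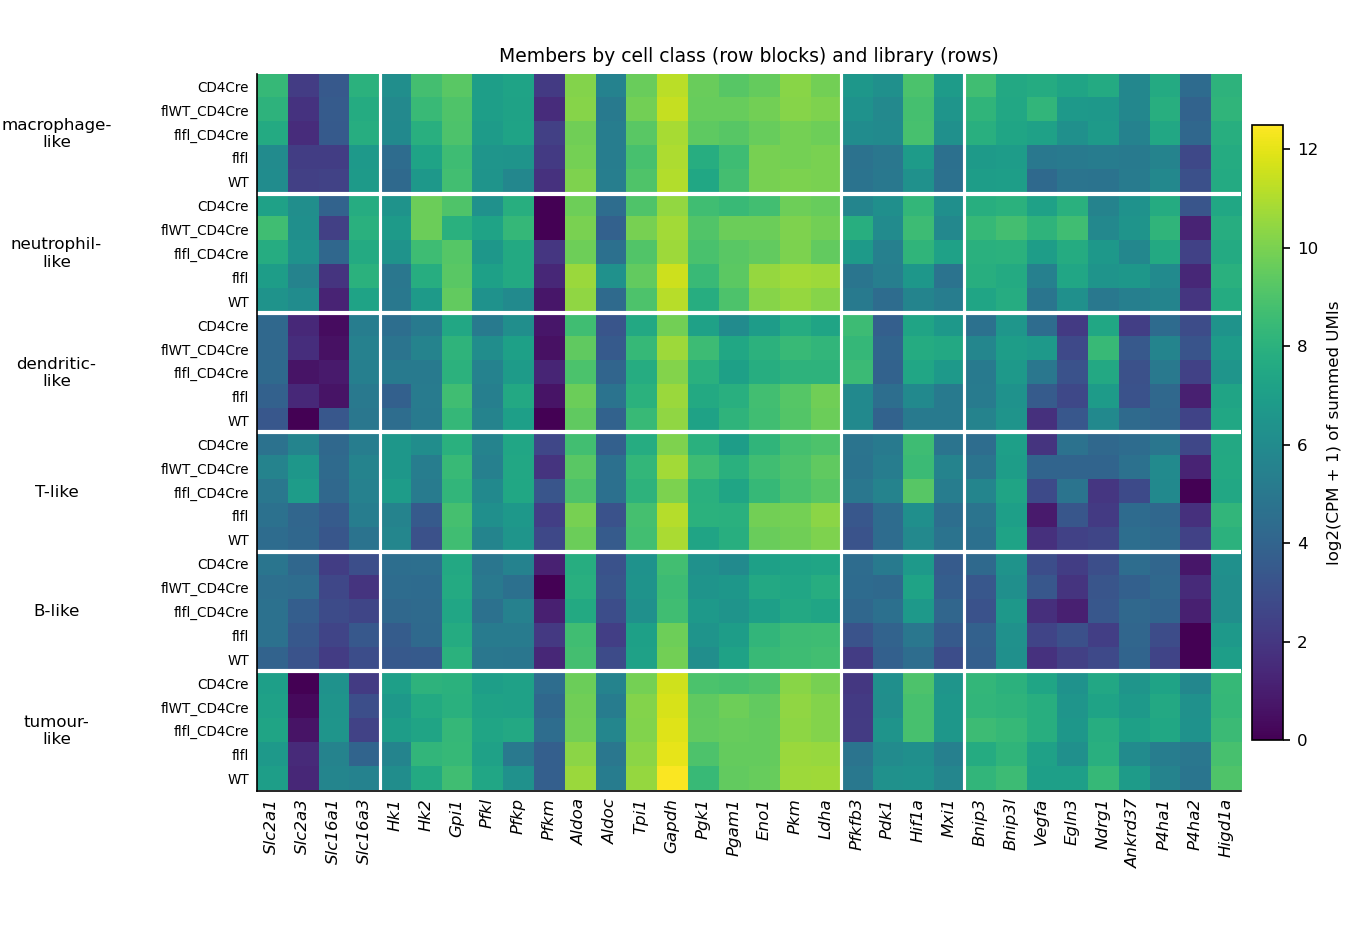
Colour gives log2(CPM + 1) of the summed UMIs of each gene (columns, by role) in 6 cell classes (row blocks) of the 5 libraries (rows). The B-like block is dark over most columns, Slc2a3 is brightest in neutrophil-like and T-like rows, and Pfkfb3 is brightest in the 3 dendritic-like rows of the libraries with a version 3.1.0 header.

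Myeloid-like cells were higher than lymphoid-like cells in 27 genes and lower in 1, by edgeR's quasi-likelihood test on sums per library with the library as a block. Over all genes tested 50% were called, 26.1% higher and 23.9% lower, and the median log2 change was 1.47 for the 32 genes and -0.04 for all genes. The 28 called genes stayed at 28 both with the low barcode copies and without every shared barcode. All 9 hypoxia targets were called higher (median 2.81), with 12 of 15 enzymes (median 1.36), 4 of 4 regulators and 2 of 4 transporters. Higd1a lost the call without CD4Cre (edgeR adjusted p = 0.0841), flWT_CD4Cre (0.0855) or flfl_CD4Cre (0.0749) and with no library block (0.196). Pfkfb3 lost it without CD4Cre (edgeR adjusted p = 0.0626), flWT_CD4Cre (0.0579) or flfl_CD4Cre (0.0571), and Eno1 with no library block (0.0697).

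Vegfa was at 174, 266 and 132 CPM in myeloid-like cells of CD4Cre, flWT_CD4Cre and flfl_CD4Cre and at 30.4 and 18.7 CPM in flfl and WT, against 6.49, 11.7, 2.79, 1.82 and 2.41 CPM in lymphoid-like cells. The classes did not overlap, and the log2 difference was 4.45 ± 0.462 (n = 5 libraries, edgeR adjusted p = 1.74e-05). Ndrg1, at 27.4 to 192 CPM in myeloid-like and 3.47 to 11.1 CPM in lymphoid-like cells, differed by 3.87 ± 0.498, and Hk2, at 99.8 to 374 and 9.03 to 26.5 CPM, by 3.65 ± 0.289. Egln3 differed by 3.58 ± 0.403 and Bnip3 by 3.42 ± 0.284. Slc2a1 was at 278, 229, 181, 64.6 and 65.7 CPM in myeloid-like cells (CD4Cre, flWT_CD4Cre, flfl_CD4Cre, flfl, WT) and at 17.7 to 32.8 CPM in lymphoid-like cells, a difference of 2.57 ± 0.281 (edgeR adjusted p = 2.51e-05).

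Among the enzymes, Pgk1 differed by 1.60 ± 0.33, Gapdh by 1.26 ± 0.261 and Ldha by 1.10 ± 0.272, beside 2.06 ± 0.222 for Aldoc, 1.97 ± 0.252 for Pgam1 and 1.81 ± 0.314 for Tpi1, and Hif1a differed by 1.14 ± 0.203, each called. Ldha and Hif1a lost the call with no library block (edgeR adjusted p = 0.173 and 0.154). Ldha was at 790 to 1052 CPM in myeloid-like cells and at 183 to 1085 CPM in lymphoid-like cells, so those ranges overlapped. Slc2a3 went the other way, at 3.45 to 7.75 CPM in myeloid-like and 12.6 to 50.3 CPM in lymphoid-like cells, a change of -2.12 ± 0.523 (edgeR adjusted p = 0.00603). The lymphoid-like class was mostly B-like in CD4Cre (2308 of 2417 cells) and mostly T-like in flfl (476 of 623 cells). T-like and B-like cells differed in these genes, as given below, and the part of the mixture in the lymphoid-like values was not tested. Of 20 other hypoxia targets tested 14 were called higher in myeloid-like cells and 1 lower, and of 10 tricarboxylic acid cycle genes 0 and 2.

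Tumour-like cells differed from myeloid-like cells in 11 genes, 7 higher and 4 lower, where 61.5% of all genes were called (29.2% higher and 32.3% lower). The median log2 change was 0.17, beside -0.04 for all genes. The count was 13 without every shared barcode and 17, with 8 higher and 9 lower, in the 3 libraries with a version 3.1.0 header alone. The contrast was largest in the transporters. Slc16a1 was at 81.6, 86.8, 90.1, 47.3 and 49.9 CPM in tumour-like cells (in the same order of libraries) and at 3.90 to 11.2 CPM in macrophage-like cells, 3.06 ± 0.257 log2 higher than in all myeloid-like cells (edgeR adjusted p = 1.45e-06).

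Slc16a3 was at 3.47, 7.11, 4.45, 15.5 and 45.97 CPM in tumour-like cells and at 111 to 215 CPM in myeloid-like cells, with no overlap and a change of -4.27 ± 0.649 (edgeR adjusted p = 0.000155). Slc16a1 thus had its highest mean in tumour-like cells and Slc16a3 in neutrophil-like cells, followed by macrophage-like cells. Dendritic-like cells, though part of the myeloid-like class, held 30.5 to 44.4 CPM of Slc16a3, which overlapped the 25.8 to 47.9 CPM of T-like cells. Slc2a3 was at 0.0 to 1.77 CPM in tumour-like cells, lower by 3.43 ± 0.674 log2 than in myeloid-like cells. Pfkm was higher by 2.40 ± 0.317 and P4ha2, another collagen prolyl hydroxylase subunit, by 1.94 ± 0.315, with 27.7 to 81.9 CPM in tumour-like and 5.52 to 19.9 CPM in macrophage-like cells. Ankrd37 was higher by 1.00 ± 0.178 and Gpi1, the phosphoglucose isomerase, lower by 0.94 ± 0.187, though without every shared barcode the Gpi1 change of -0.53 was not called (edgeR adjusted p = 0.0981).

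Pfkfb3 was at 3.13, 3.38, 3.46, 27.4 and 31.3 CPM in tumour-like cells, and its change of -2.92 ± 0.951 against myeloid-like cells was called (edgeR adjusted p = 0.0194) but lost the call without CD4Cre (0.0842), flWT_CD4Cre (0.0881) or flfl_CD4Cre (0.0887). Slc2a1 (-0.40 ± 0.263), Ldha (0.17 ± 0.263), Pgk1 (-0.004 ± 0.312), Gapdh (0.59 ± 0.254), Hif1a (-0.23 ± 0.2), Vegfa (0.80 ± 0.391), Bnip3 (0.31 ± 0.252) and Egln3 (0.20 ± 0.349) were not called. Against lymphoid-like cells, 27 of the 32 genes were higher and 1, Slc2a3, lower (-5.54 ± 0.694), where 61.9% of all genes were called (29.5% higher). Vegfa led with 5.25 ± 0.476, followed by Ndrg1 (4.93 ± 0.519), P4ha2 (4.75 ± 0.41), Egln3 (3.77 ± 0.405) and Bnip3 (3.73 ± 0.286), and Slc2a1 (2.17), Gapdh (1.85), Pgk1 (1.60), Ldha (1.27) and Hif1a (0.91) were also called higher, of which Ldha and Hif1a lost the call with no library block (edgeR adjusted p = 0.0767 and 0.158). Eno1 lost the call without CD4Cre (edgeR adjusted p = 0.0716), flWT_CD4Cre (0.0845) or flfl_CD4Cre (0.0946). With no library block Eno1 (edgeR adjusted p = 0.297) and Aldoa (0.0512) lost it. Without every shared barcode the count stayed at 28.

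**Figure D4:**
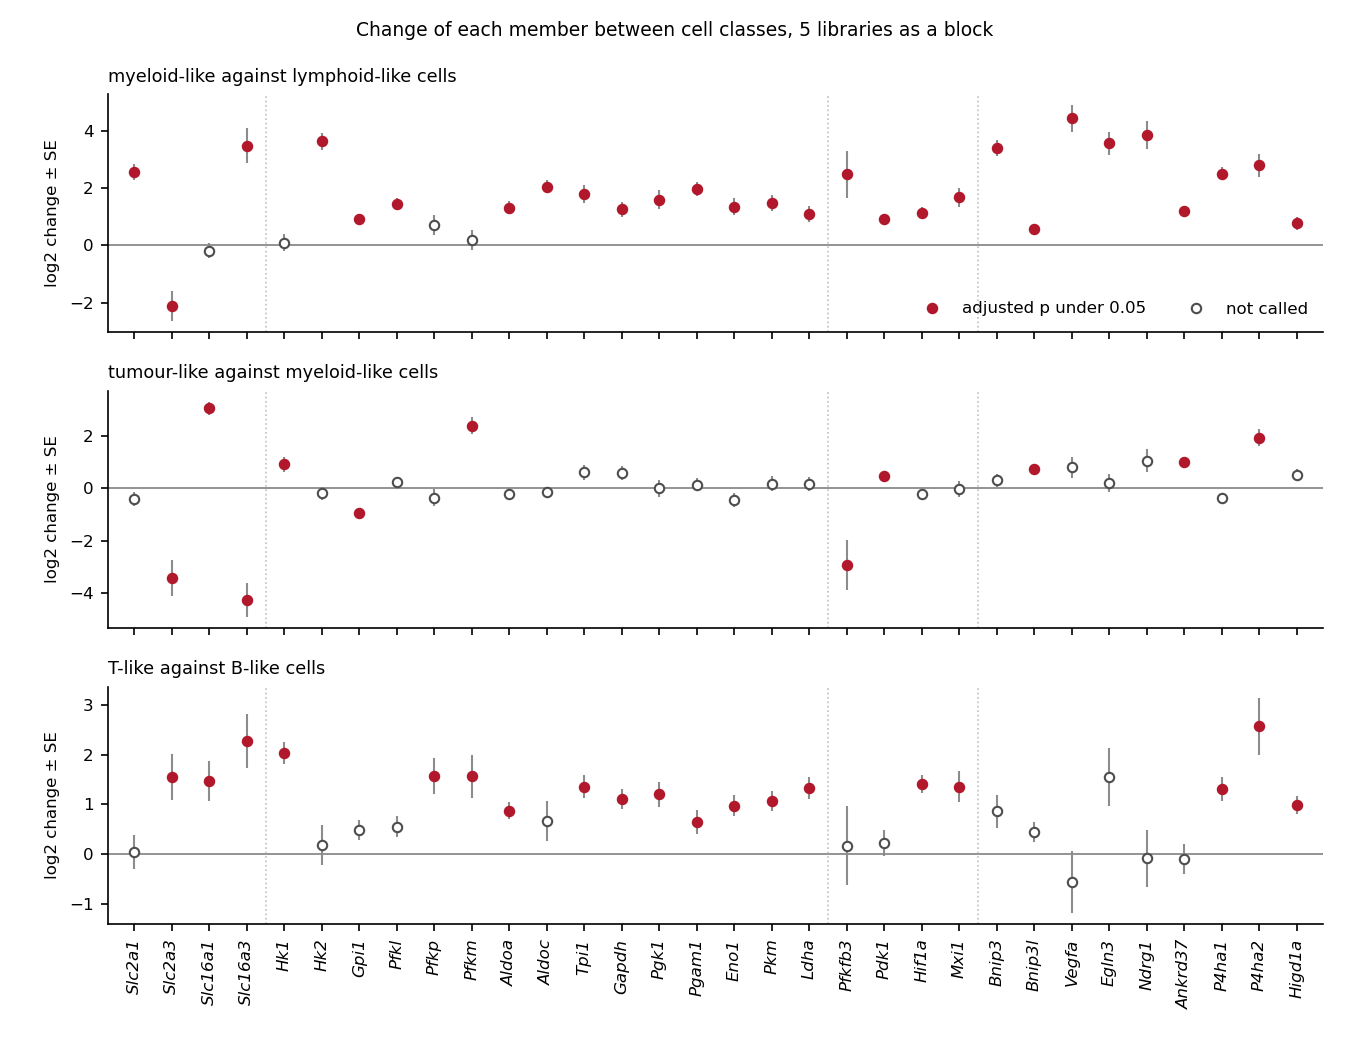
Log2 change ± SE of each of the 32 genes (horizontal axis, by role) for myeloid-like against lymphoid-like, tumour-like against myeloid-like and T-like against B-like cells, from edgeR fits on sums per library with 5 libraries as a block. Filled points have an adjusted p under 0.05; there are 28, 11 and 19 of them, and Slc2a3 is the only filled point below 0 in the upper panel.

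Within the myeloid-like cells, 7 of the 32 genes were called between neutrophil-like and macrophage-like cells and 29 between dendritic-like and macrophage-like cells. These comparisons of subclasses were added after the classes had been examined. Neutrophil-like cells differed from macrophage-like cells in 7 genes, 6 higher and 1 lower, where 24.9% of all genes were called (11% higher and 13.9% lower), a count near that share. Slc2a3 was at 71.8, 73.9, 81.0, 47.8 and 66.5 CPM in neutrophil-like and at 2.05 to 4.15 CPM in macrophage-like cells, higher by 4.42 ± 0.465 log2 (edgeR adjusted p = 2.84e-07). Egln3 was at 245, 407, 208, 165.9 and 77.0 CPM against 27.3 to 156.7 CPM, higher by 1.65 ± 0.401 (edgeR adjusted p = 0.00388). Bnip3l (0.92 ± 0.2), Hk1 (0.72 ± 0.198) and Ankrd37 (0.80 ± 0.267) were higher and P4ha2 (-1.75 ± 0.413) lower. Hk1 lost the call without flWT_CD4Cre (edgeR adjusted p = 0.104) and with no library block (0.188), and Ankrd37 without CD4Cre (0.0557), flWT_CD4Cre (0.135) or flfl (0.155), in the 3 libraries with a version 3.1.0 header alone (0.0795), with no filter (0.0955) and with no library block (0.0941).

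Hk2 (0.92 ± 0.339, edgeR adjusted p = 0.0486) was called with all 5 libraries and lost its call without CD4Cre (0.0996), flWT_CD4Cre (0.246) or flfl_CD4Cre (0.124). It also lost the call with no filter (edgeR adjusted p = 0.128), with no library block (0.15) and with the low copies of shared barcodes (0.051). The count of 7 fell to 4 without flWT_CD4Cre. Slc2a1, Ldha, Pgk1, Gapdh, Hif1a, Vegfa and Bnip3 were not called, at 0.24 ± 0.302, 0.08 ± 0.212, -0.20 ± 0.244, -0.11 ± 0.198, -0.37 ± 0.178, 0.03 ± 0.372 and 0.22 ± 0.278 log2. Neutrophil-like cells were shallow in the libraries with a version 3.1.0 header, at a median of 2748 to 3483.5 UMIs per cell.

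Dendritic-like cells were lower than macrophage-like cells in 27 genes and higher in 2, where 42.2% of all genes were called (22.8% lower and 19.3% higher). Slc2a1 was at 17.5, 17.8, 18.3, 13.9 and 9.40 CPM in dendritic-like cells and at 63.8 to 334 CPM in macrophage-like cells, a change of -3.32 ± 0.347 (edgeR adjusted p = 3.26e-08). Egln3 changed by -3.55 ± 0.496, Slc16a1 by -3.12 ± 0.502, Hk2 by -2.57 ± 0.373 and Bnip3 by -2.43 ± 0.3, with smaller falls in Vegfa (-1.90), Ldha (-1.19), Hif1a (-1.17), Pgk1 (-1.08) and Gapdh (-0.68). Gapdh lost the call without CD4Cre (edgeR adjusted p = 0.0692), and with no library block Gapdh (0.24), Ldha (0.2), Hif1a (0.198) and Vegfa (0.0578) did. The exceptions were Pfkfb3 and Ndrg1.

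Pfkfb3 was at 373, 318 and 362 CPM in dendritic-like cells of CD4Cre, flWT_CD4Cre and flfl_CD4Cre and at 59.1 and 61.1 CPM in flfl and WT, against 98.4, 81.8, 67.0, 24.9 and 25.9 CPM in macrophage-like cells. It was higher in each of the 5 libraries, by 2.05 ± 0.644 log2 (edgeR adjusted p = 0.0121), and lost the call without flfl_CD4Cre (0.061). Ndrg1 was higher by 1.09 ± 0.403 (edgeR adjusted p = 0.0319) and lost the call without flWT_CD4Cre (0.209), flfl (0.0899) or flfl_CD4Cre (0.0881). It also lost the call with no filter (edgeR adjusted p = 0.0897), with no library block (0.0787) and without every shared barcode (0.0754). Of the 32 genes Pfkfb3 and Mxi1 had their highest mean in dendritic-like cells.

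T-like cells were higher than B-like cells in 19 genes and lower in 0, where 26.3% of all genes were called (13.7% higher and 12.5% lower). The median log2 change of the 32 genes was 1.03 and that of all genes 0.02. Hk1 was at 96.4, 98.5, 118.5, 47.95 and 52.9 CPM in T-like and 22.0, 20.2, 17.9, 11.3 and 10.4 CPM in B-like cells, with no overlap and a difference of 2.03 ± 0.215 (edgeR adjusted p = 7.51e-08). P4ha2, at 0.0 to 5.36 CPM, differed by 2.57 ± 0.571 but not in the 3 libraries with the version 3.1.0 header alone (edgeR adjusted p = 0.372) or with stricter markers (0.0596). Slc16a3 differed by 2.27 ± 0.542, Pfkp by 1.57 ± 0.361, Hif1a by 1.41 ± 0.185, Ldha by 1.33 ± 0.216, Pgk1 by 1.20 ± 0.25 and Gapdh by 1.11 ± 0.201. With no library block Hif1a and Ldha lost the call (edgeR adjusted p = 0.135 and 0.0667). Pgam1, called at an edgeR adjusted p of 0.0499, lost the call in DESeq2 (DESeq2 adjusted p = 0.0598). It also lost it with no filter (edgeR adjusted p = 0.0612) and without CD4Cre (0.0731), flWT_CD4Cre (0.144), flfl (0.124) or flfl_CD4Cre (0.15). Slc16a1 and Pfkm lost the call without CD4Cre (edgeR adjusted p = 0.0754 for both), and Slc2a3 without flWT_CD4Cre (0.051) or flfl_CD4Cre (0.132). Slc2a1 (0.05 ± 0.342), Bnip3 (0.86 ± 0.329), Egln3 (1.54 ± 0.581) and Vegfa (-0.56 ± 0.627) were not called.

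Macrophage-like cells were higher than T-like cells in 25 genes and lower in 2, where 49.9% of all genes were called (25.5% higher and 24.3% lower). In each library taken singly, 18 genes were higher and 5 lower, and shares over all genes were not computed for this. Ldha was at 850 to 1093 CPM in macrophage-like and 519.5 to 699 CPM in T-like cells of the libraries with the header. In flfl and WT the direction was reversed, at 1015 to 1022 against 1070 to 1272 CPM. Gapdh overlapped in flfl and WT, at 2006 to 2147 against 1923 to 2170 CPM. Vegfa was at 206, 301, 143.5, 31.0 and 18.4 CPM in macrophage-like and 2.68, 15.1, 5.92, 0.84 and 2.35 CPM in T-like cells, a difference of 4.91 ± 0.52 (edgeR adjusted p = 2.76e-08). Ndrg1 (3.61 ± 0.51), Hk2 (3.41 ± 0.392), Bnip3 (3.11 ± 0.315), Slc2a1 (2.70 ± 0.335), Egln3 (2.64 ± 0.468), Pgk1 (1.13 ± 0.248) and Gapdh (0.77 ± 0.2) were higher. Slc2a3, at 49.5, 95.8, 118.5, 16.4 and 16.8 CPM in T-like cells, was lower in macrophage-like cells by 3.62 ± 0.466 log2, and Hk1 by 0.76 ± 0.193, which was not called in the 3 libraries with the header alone (edgeR adjusted p = 0.135). Hif1a (0.46 ± 0.177) and Ldha (0.58 ± 0.213) were called but lost the call without CD4Cre (edgeR adjusted p = 0.101 and 0.111) or flWT_CD4Cre (0.0509 and 0.0715). Hif1a also lost it without flfl (0.0755) or WT (0.128) and in the 3 libraries with the header alone (0.231). Ldha lost it without flfl_CD4Cre (0.0533) too. Hif1a further lost the call with DESeq2 size factors (edgeR adjusted p = 0.0754) and in DESeq2 itself (DESeq2 adjusted p = 0.0622). With no library block Hif1a (0.737), Ldha (0.589), Gapdh (0.208) and Hk1 (0.149) lost it as well.

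With 1 library per genotype there is no test between genotypes, and values are given with 95% Poisson intervals. The pairs flWT_CD4Cre against CD4Cre, flfl_CD4Cre against flWT_CD4Cre and WT against flfl were chosen after the data had been seen. A gene was counted as past the fold where the log2 ratio was at least 1, the higher library held at least 50 CPM and the intervals did not overlap. Before any genotype is compared, the libraries with and without the version 3.1.0 header must be set side by side. Hif1a was at 398.5 to 432 CPM in myeloid-like cells of the 3 libraries with the header and at 76.2 to 109.8 CPM in the 2 without, at 460 to 517 against 73.8 to 81.7 CPM in tumour-like cells and at 367 to 613 against 57.2 to 73.4 CPM in T-like cells. It was higher with the header in all 8 classes and subclasses, with no overlap.

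Of 24 genes at 50 CPM in myeloid-like cells 19 were higher with the header and 2, Eno1 and Ldha, lower, with no overlap, and of all genes 51.1% were higher and 31.0% lower. In tumour-like cells 9 of 27 were higher and 9 lower, where 51.3% and 31.8% of all genes were, and in lymphoid-like cells 1 of 13 was higher and 10 lower, where 43.6% and 38.8% were. Comparisons of flfl_CD4Cre with flfl carry this division and those of flfl_CD4Cre, flWT_CD4Cre and CD4Cre do not.

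Between flfl_CD4Cre and CD4Cre, which differ in the floxed alleles and share the Cre, 0 of 26 genes at that level in myeloid-like cells were past the fold, where 1.79% of all genes were (1.09% higher and 0.704% lower). In lymphoid-like cells 0 of 13 were (5.12% of all genes) and in tumour-like cells 0 of 28 (0.567% of all genes). Without every shared barcode the counts in myeloid-like and lymphoid-like cells were 0 as well. Below the fold, 3 of 26 genes were higher in flfl_CD4Cre in myeloid-like cells, with a median of -0.17 log2, against 25 of 28 in tumour-like cells, with a median of 0.27, and 12 of 13 in lymphoid-like cells, with a median of 0.30. The medians of all genes were 0.03, 0.02 and -0.06. The lymphoid-like direction was not that of its larger part, since in B-like cells alone (213 and 2308 cells) 5 of 12 genes were higher, with a median of -0.03, beside 15 of 19 and 0.27 in T-like cells.

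In myeloid-like cells the largest differences were in Egln3, Hk2 and Ndrg1. Egln3 was at 73.0 CPM (70.2 to 75.8) in flfl_CD4Cre and 133.2 CPM (127.9 to 138.6) in CD4Cre, with 96.4 CPM in flWT_CD4Cre, 41.98 in flfl and 29.9 in WT, a log2 ratio of -0.87. Hk2 was at 221 CPM (216 to 226) against 374 CPM (365 to 383), a log2 ratio of -0.76, with 312 CPM in flWT_CD4Cre, and Ndrg1 at 118.9 CPM (115.3 to 122.5) against 192 CPM (186 to 199), a log2 ratio of -0.69, with 141 CPM in flWT_CD4Cre. In all 3 genes flfl_CD4Cre was the lowest and CD4Cre the highest of the libraries with the header in myeloid-like cells, but in macrophage-like cells alone flWT_CD4Cre held the lowest Ndrg1, at 99.1 CPM against 112.2 CPM in flfl_CD4Cre. Among macrophage-like cells alone Egln3, at 77.3 CPM (74.2 to 80.4) against 156.7 CPM (150.4 to 163.2), was past the fold with a log2 ratio of -1.02, the only one of 27 genes, where 1.84% of all genes were.

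In tumour-like cells Hk2 was again the lower in flfl_CD4Cre, and most other genes were higher. Hk2 was at 158 CPM (152 to 164) in flfl_CD4Cre and 268 CPM (249 to 287) in CD4Cre, a log2 ratio of -0.77, with 194.5 CPM in flWT_CD4Cre. Pgam1, the phosphoglycerate mutase, was at 777 CPM (764 to 790.0) against 465 CPM (441 to 491), a log2 ratio of 0.74, and P4ha2 at 81.8 CPM (77.6 to 86.3) against 53.8 CPM (45.7 to 63.0), a log2 ratio of 0.60. Both libraries with floxed alleles and Cre were above CD4Cre here, since flWT_CD4Cre held 864 CPM of Pgam1 and 78.8 CPM of P4ha2. The CD4Cre values rest on 87 tumour-like cells.

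In lymphoid-like cells the largest differences were in Pgam1 (98.2 against 65.7 CPM, log2 ratio 0.58), Hif1a (184 against 124 CPM, 0.57) and Pgk1 (125.2 against 88.3 CPM, 0.50). Both lymphoid-like classes were mostly B-like, with T-like cells at 49 of 267 in flfl_CD4Cre and 102 of 2417 in CD4Cre. The part of this mixture in the values was not tested. In T-like cells Slc2a3 was past the fold, with a log2 ratio of 1.26. It was at 118.5 CPM (84.7 to 161.4, from 40 UMIs) in flfl_CD4Cre and 49.5 CPM (34.9 to 68.3, from 37 UMIs) in CD4Cre, with 95.8 CPM in flWT_CD4Cre. It was the only one of 19 genes, where 5.65% of all genes were, a count near that share, and it rests on 49 and 102 cells. Hif1a in T-like cells was at 613 CPM (533 to 703) against 396 CPM (352.5 to 444), a log2 ratio of 0.63 and below the fold. In B-like cells 0 of 12 genes were past the fold, where 4.85% of all genes were.

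**Figure D5:**
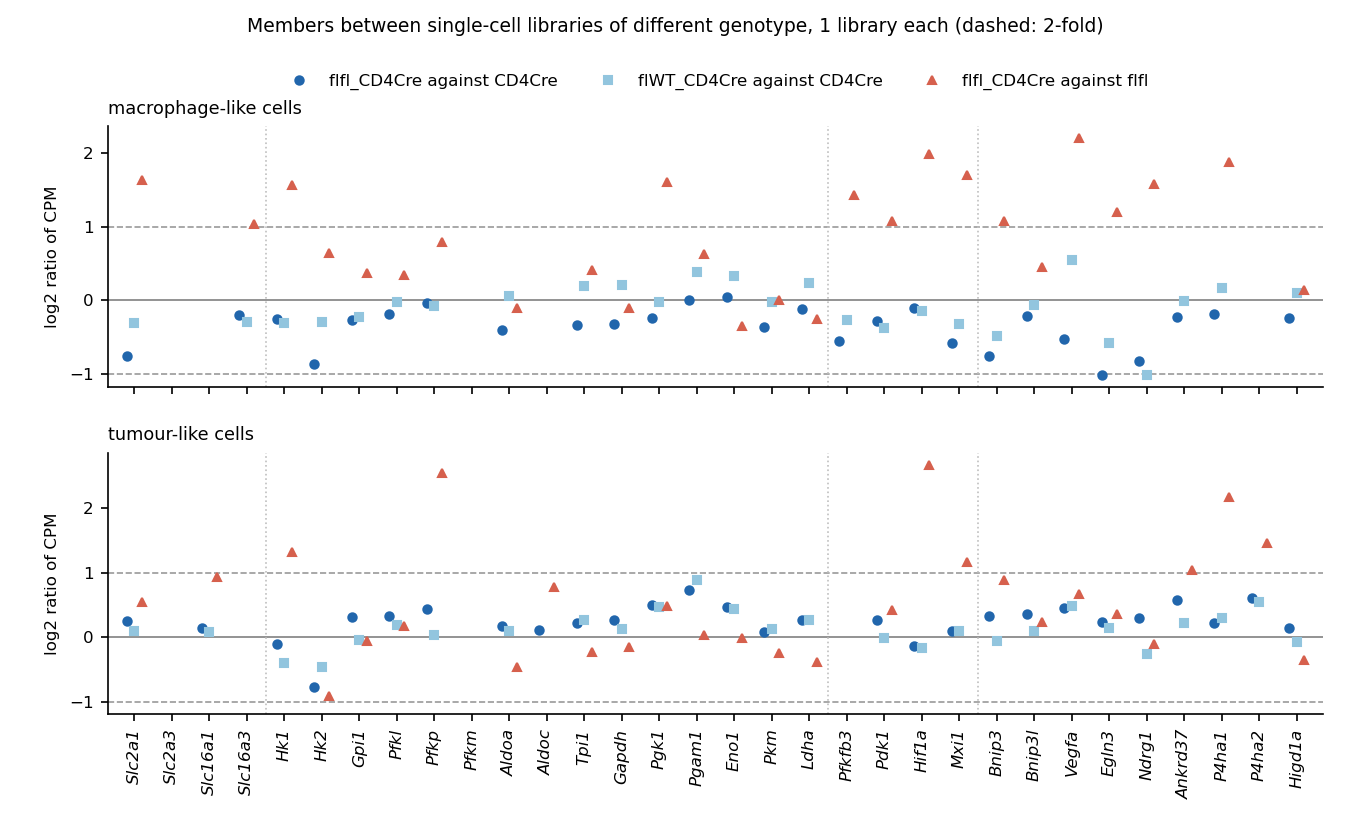
Log2 ratio of CPM between single-cell libraries for each of the 32 genes that reached 50 CPM, in macrophage-like (upper) and tumour-like (lower) cells, for 3 pairs of genotypes with 1 library each; dashed lines mark a log2 ratio of 1 either way. Circles (flfl_CD4Cre against CD4Cre) lie mostly below 0 in macrophage-like and above 0 in tumour-like cells, and triangles (flfl_CD4Cre against flfl, which also differ in file header) reach 2.68 at Hif1a in tumour-like cells.

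The heterozygous library gave a similar count in myeloid-like and tumour-like cells, with 0 of 26 genes (1.97% of all genes, 1.46% higher and 0.508% lower) and 0 of 27 (0.66% of all genes) past the fold between flWT_CD4Cre and CD4Cre. In lymphoid-like cells 5 of 15 were higher, Slc2a3, Gapdh, Pgk1, Pgam1 and Ldha, where 8.12% of all genes were past the fold. B-like cells alone gave 0 of 12 (2.65% of all genes) and T-like cells 2 of 17, Pgam1 and P4ha1 (6.1% of all genes). T-like cells made up 62 of 187 lymphoid-like cells in flWT_CD4Cre and 102 of 2417 in CD4Cre. Between flfl_CD4Cre and flWT_CD4Cre, Vegfa was lower in myeloid-like cells, at 131.9 CPM (128.2 to 135.8) against 266 CPM (259.6 to 273), a log2 ratio of -1.01 and the only one of 26 genes (2.92% of all genes, 1.08% higher and 1.84% lower). In macrophage-like cells Ndrg1 was lower in flWT_CD4Cre, at 99.1 CPM (94.6 to 103.6) against 199.5 CPM (192 to 207) in CD4Cre.

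Vegfa was lower in flfl_CD4Cre than in flWT_CD4Cre in each myeloid-like subclass as well, past the fold with log2 ratios of -1.07 in macrophage-like, -1.79 in dendritic-like and -1.19 in neutrophil-like cells, where 2.41%, 2.15% and 35.9% of all genes were past it. Ndrg1 was past the fold between flWT_CD4Cre and CD4Cre in opposite directions, lower in macrophage-like and higher in dendritic-like cells. In dendritic-like cells 7 of 19 genes were past the fold between flWT_CD4Cre and CD4Cre, all higher, where 3.46% of all genes were, and 1 of 16 between flfl_CD4Cre and CD4Cre, where 1.21% of all genes were. Vegfa was at 104.6 CPM (95.1 to 114.9) in flWT_CD4Cre and 20.51 CPM (15.7 to 26.4) in CD4Cre, a log2 ratio of 2.35, with 30.3 CPM in flfl_CD4Cre. Pgam1 was past the fold in both pairs, at 172 CPM (160 to 185) in flWT_CD4Cre and 137.3 CPM (125.3 to 150.2) in flfl_CD4Cre against 64.9 CPM (56.1 to 74.7) in CD4Cre, and these pairs share the CD4Cre library. Pgk1 (1.40), Bnip3 (1.13), Eno1 (1.13), Pfkl (1.02) and Ndrg1 (1.01) were the others, as log2 ratios of flWT_CD4Cre to CD4Cre. In neutrophil-like cells, with 57 cells in CD4Cre, Hk2 was at 393 CPM (348 to 443) in flfl_CD4Cre and 817 CPM (723 to 920) in CD4Cre, and Pfkfb3 at 112.8 CPM (89.2 to 140.8) against 50.9 CPM (29.6 to 81.5), the only 2 of 28 genes past the fold where 8.3% of all genes were.

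Against flfl, flfl_CD4Cre was past the fold in 9 of 26 genes in myeloid-like cells, all higher, where 40.6% of all genes were (33.4% higher and 7.17% lower). These were Slc2a1, Hk1, Pfkfb3, Pgk1, Vegfa, Ndrg1, P4ha1, Hif1a and Mxi1, with log2 ratios of 1.33 in Ndrg1 to 2.12 in Vegfa. In tumour-like cells 7 of 28 were, all higher (42.2% of all genes), led by Hif1a at 472 CPM (462 to 482) against 73.8 CPM (63.1 to 85.9), a log2 ratio of 2.68, with Pfkp at 2.55 and P4ha1 at 2.18. Without every shared barcode these counts were 11 and 15. In lymphoid-like cells 1 of 14, Hif1a, was higher and 10 were lower (55.7% of all genes), led by Eno1 at 165.7 CPM (149 to 184) against 791 CPM (769 to 814), a log2 ratio of -2.26. The last comparison also sets a mostly B-like class against a mostly T-like one.

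Between the 2 libraries without the header, WT and flfl, 0 of 19 genes in myeloid-like cells (3.71% of all genes), 0 of 14 in lymphoid-like cells (2.8% of all genes) and 1 of 24 in tumour-like cells (2.8% of all genes) were past the fold. The 1 was Pfkp, at 78.4 CPM (69.5 to 88.1) in WT and 32.3 CPM (25.3 to 40.6) in flfl, a log2 ratio of 1.28 from 114 and 57 cells. Macrophage-like (0 of 19), dendritic-like (0 of 15), T-like (0 of 15) and B-like cells (0 of 11) had none, where 3.01%, 4.89%, 1.18% and 3.61% of all genes were past the fold. In neutrophil-like cells 5 of 24 genes were lower in WT and 0 higher (13.2% of all genes, 7.74% lower), from 145 and 189 cells. These were Aldoc (-2.04), Pfkp (-1.65), Ndrg1 (-1.50), Ankrd37 (-1.22) and Egln3 (-1.11), as log2 ratios.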

How the data were processed

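The 12 bulk files hold raw counts per gene as deposited by the authors. The submitters' processing notes name mm10, STAR and HTSeq as their build, aligner and counter. The 5 single-cell matrices hold UMI counts deposited by the authors, and 3 of them name Cell Ranger 3.1.0 in their file headers. For the remaining tools no version is given in the sources used here. The bulk summary rows, which name no gene and number 5 in each file, were left out of library sizes and tests.

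Groups follow the sample titles and labels. The titles were used where the treatment field disagrees with them, and the labels where the file names of the WT and flWT_CD4Cre matrices disagree with them. The genes and the pathway and marker lists were chosen with earlier results of these data known. Named genes were Slc2a1, Ldha, Pgk1, Gapdh, Hif1a, Vegfa, Bnip3 and Egln3 in every comparison, with the 4 genes of smallest p in each comparison within a set, the 4 largest called changes each way across sets and between cell classes, and, between genotypes, the genes past the fold or, with none, the 3 of largest change.

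Bulk counts were fitted over all 4 groups with edgeR 4.0.16 (TMM scaling, glmQLFit, glmQLFTest, Benjamini-Hochberg adjustment, threshold 0.05) in R 4.3.3, and CPM are gene counts scaled to a total of 1000000. DESeq2 1.42.0 was an alternative. Barcodes passed with 200 or more genes and a mitochondrial share of UMIs up to 10%. A cell was placed in the class that held at least 75% of its marker UMIs. Within that class the cell-type list with most UMIs set the subclass, and at least 3 distinct markers of this list were required. No share of UMIs was required between subclasses of 1 class. Of the kept cells, 335 lay within 5 percentage points under the 75% limit and 579 within 5 over it. No doublet caller was run. Sums of at least 20 cells per library and class were tested with edgeR and the library as a block. Scripts in Python 3.11.15 with scipy 1.17.1 gave exact Poisson intervals at 95%. The fits were tested on simulated data. Alternatives were other scaling, no filter, left-out libraries, stricter markers, other treatment of shared barcodes and other folds.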

Additional observations from a re-analysis of the deposited data

Results flagged for a closer look

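Cell barcodes occurred in several single-cell libraries, and 3561 low copies were removed before the cell classes were formed and entered only the alternative that put them back. They numbered 1214 in CD4Cre, 832 in flfl_CD4Cre and 1515 in flWT_CD4Cre, and 0 in flfl and WT. A median of 98.5% of the genes counted in a low copy were also counted in the copy with most UMIs.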

How the results depend on the processing

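On plain CPM the called Aldoc and Pkm changed sign in both comparisons across the sets; no other called result changed sign under an alternative. Of the counts of called genes, 204 values lay within 1.5 times the reported one, 6 rose and 5 fell past it. Between PD1_Fc and Ctrl_Fc, leaving out 1 library gave 0 to 1 called genes, the 1 being Vegfa without Ctrl_Fc replicate 3, and over all genes the 7 calls became 18 with DESeq2, 27 with only the libraries compared and 0 to 14 with 1 library left out. Tumour-like against myeloid-like cells gave 17 in place of 11 in the 3 libraries with a version 3.1.0 header. With no library block, neutrophil-like against macrophage-like cells gave 4 in place of 7, dendritic-like against macrophage-like cells 18 in place of 29 and T-like against B-like cells 10 in place of 19. Leaving out 1 library gave 4 to 7 for neutrophil-like against macrophage-like cells. At a fold of 0.58 log2, flfl_CD4Cre against CD4Cre gave 5 in myeloid-like and 3 in tumour-like cells in place of 0, and flfl_CD4Cre against flfl gave 12 in tumour-like cells in place of 7. That last count was 3 with cells thinned to 2000 UMIs and 15 without every shared barcode. The cause was not tested.

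With the replicate number as a block, 0, 0, 31, 31 and 0 of the 32 genes were called in PD1_Fc against Ctrl_Fc, PDL1_Fc against Control, Ctrl_Fc against Control, PD1_Fc against PDL1_Fc and the difference of differences, as without it. Same-numbered libraries of Ctrl_Fc and PD1_Fc or of Control and PDL1_Fc correlated at -0.113 to 0.053, so the numbers did not pair them. For tumour-like cells, removing every shared barcode (flfl_CD4Cre against CD4Cre) and the stricter markers (flfl_CD4Cre against flfl) left sums of under 20 cells and gave no value. Depth limits Bnip3, Higd1a, Ankrd37 and Gapdh in Ctrl_Fc and PD1_Fc and the T-like values of flfl_CD4Cre.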
